A study of Drosophila melanogaster with 26 samples.

Results

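Phosphorylation of histone H3 at serine 10 has different writers at different times of the cell cycle. In interphase *Drosophila* cells it is placed by the chromosomal kinase JIL-1, which is held in a complex by its partner JASPer. In mitosis it is placed by Aurora B. The 9 genes described here encode the other kinases that act on histone H3 or next to it, the partners of Aurora B, and the 14-3-3 proteins. The rule that chose them names each gene and uses no measured value, though the genes were chosen with earlier results of these data known. They are aurA, aurB, Incenp, borr, Det, Haspin, ball, 14-3-3zeta and 14-3-3epsilon. All 9 symbols matched a FlyBase identifier in the count tables, out of 17489 genes listed, and all 9 passed the filter on low counts in every comparison.

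Aurora B works as the enzyme of the chromosomal passenger complex. Incenp is its scaffold and activator, borr encodes the fly Borealin, and Det (Deterin) encodes the fly Survivin. In human cells the complex is brought to centromeres when Survivin binds histone H3 that Haspin has phosphorylated at threonine 3. The protein kinase ball belongs to the vaccinia-related kinases and is called nucleosomal histone kinase for its activity on histones. Aurora A acts mainly at centrosomes and on the spindle. The 14-3-3 proteins bind many proteins at phosphorylated serines, and histone H3 carrying phosphorylated serine 10 is among their ligands.

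RNA was measured by strand-specific sequencing after depletion of rRNA in 2 lines of cultured *Drosophila melanogaster* cells, the male line S2 (S2-DRSC) and the female line Kc (Kc167). Both lines derive from embryos and are used as hemocyte-like cells. Each line was treated with control dsRNA, with dsRNA against jasper (the gene JASPer), or with dsRNA against jil-1 (the gene JIL-1), at 10 µg/mL, and was treated again after 3 days and kept for 4 days more. The S2 samples were 5 control, 4 jasper and 5 jil-1 RNAi libraries in 3 batches, and the third batch held 1 control and 1 jil-1 library only. The Kc samples were 4 libraries of each group in 2 batches. The labels give the controls as control RNAi without naming the dsRNA of each sample. The paper lists 2 dsRNAs for jasper and 2 for jil-1, and no label says which of them a sample received. The labels also do not say whether replicates were separate cultures, so p-values below measure the spread between these samples only. The cells carry no engineered allele in any label. As bulk RNA was measured, fewer cells of a type (for example fewer cells in mitosis) and less RNA per cell cannot be told apart.

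The libraries held 4038886 to 17648358 reads on the genes' own strand in S2 cells and 2513223 to 17419281 in Kc cells. No pair of libraries of a group agreed within sampling noise. All 9 hemocyte markers on a fixed list had a median above 1 CPM in both lines, and so did some markers of other cells. Of 6 markers of neurons, muscle, germline and somatic ovary, 2 had medians above 1 CPM in S2 cells (elav at 33.0 and Mef2 at 51.4 CPM) and 4 in Kc cells (elav at 31.6, Mef2 at 36.3, nos at 6.84 and Mhc at 1.47 CPM), and tj, of somatic ovary, had a median of 0 in both. The RNA of roX2, a non-coding RNA of male dosage compensation, was between 534 and 968 CPM in S2 libraries and at most 20.3 CPM in Kc libraries. On the same marker list, msl-2 was between 48.1 and 62.1 CPM in S2 and between 5.89 and 12.6 CPM in Kc libraries. The marker roX1 did not separate the lines, at 0.58 to 27.0 CPM in S2 and 0.92 to 31.8 CPM in Kc libraries. Reads on the targeted genes were raised on one or the other strand in the RNAi libraries, so those on their own strand were not used as a measure of their mRNA. JASPer had 1896 CPM on its own and 17.9 CPM on the opposite strand in Kc jasper RNAi replicate 2, whereas replicate 1 had more reads on the opposite strand, at 3659 CPM. JASPer reads on the opposite strand were between 17.9 and 3659 CPM in the Kc jasper RNAi libraries and at most 3.82 CPM in the other Kc libraries. JIL-1 reads on the opposite strand were between 112 and 402 CPM in the S2 jil-1 RNAi libraries and at most 13.2 CPM in the other S2 libraries. The Kc jasper RNAi replicates 2 and 4 stood apart, at 19.6 each on the first principal component, whereas the other 10 Kc libraries lay between -10.4 and 3.40. The called results on Kc jasper RNAi are therefore given with and without these libraries.

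The levels below are in CPM, in which each library's reads are scaled to one common total, after TMM scaling of all 26 samples together, which sets the bulk of genes level between libraries. Levels of different genes are compared per kilobase of merged exons. In control S2 cells the order of mean levels was 14-3-3epsilon at 337 ± 31.6 CPM per kb (SD, n = 5), 14-3-3zeta at 274 ± 16.8, Incenp at 74.9 ± 6.75, aurB at 62.4 ± 5.66, ball at 61.7 ± 5.84, Det at 56.1 ± 8.76, borr at 44.7 ± 5.11, Haspin at 30.9 ± 3.07 and aurA at 27.7 ± 3.77. The 14-3-3 genes were thus at several times the level of any kinase. Neighbors in this order overlapped between samples except 14-3-3epsilon and 14-3-3zeta, 14-3-3zeta and Incenp, and borr and Haspin. Against a median of 19.8 CPM per kb over 8285 genes, aurA lay at percentile 60.9 and 14-3-3epsilon at percentile 97.4, with the other 7 in between.

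In control Kc cells the order was led by 14-3-3zeta at 650 ± 37.6 CPM per kb (SD, n = 4), followed by 14-3-3epsilon at 345 ± 40.8 and Incenp at 85.3 ± 7.37. Det, aurB, borr and ball followed at 63.0 ± 3.36, 62.8 ± 1.85, 61.1 ± 8.10 and 58.9 ± 4.37 CPM per kb, and neighbors among these overlapped between samples. Haspin at 40.0 ± 4.74 and aurA at 35.7 ± 1.80 CPM per kb were the lowest in this line also, and they overlapped with each other. The neighbors whose samples did not overlap were 14-3-3zeta and 14-3-3epsilon, 14-3-3epsilon and Incenp, Incenp and Det, and ball and Haspin. The percentiles ran from 71.3 for aurA to 98.5 for 14-3-3zeta.

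**Figure D1:**
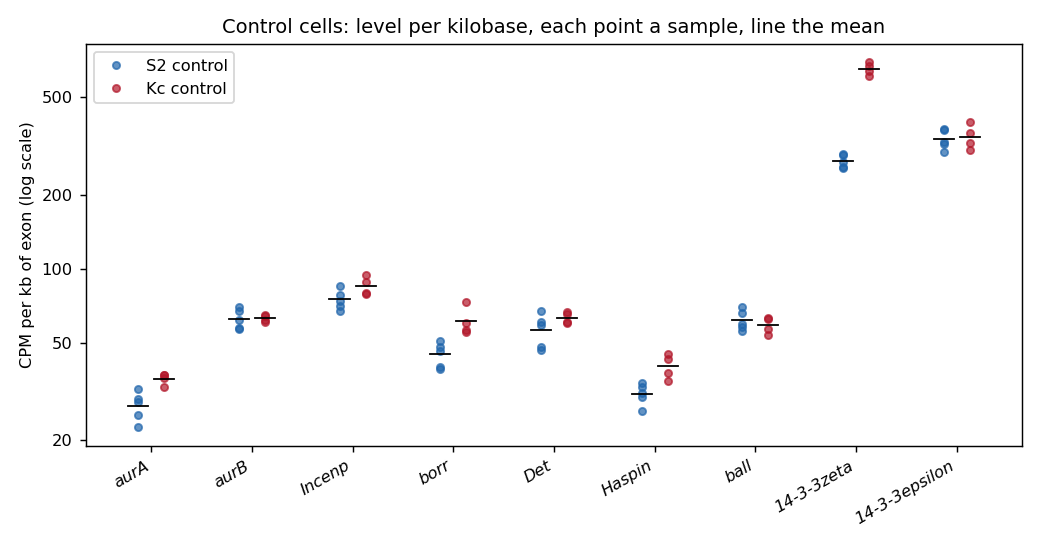
Levels of the 9 genes in control RNAi cells, in CPM per kilobase of merged exons on a log axis, with S2 (blue) and Kc (red) libraries as points and a short line at the group mean. Both 14-3-3 genes sit well above the kinases in both lines, and 14-3-3zeta shows the widest gap between the lines, 274 against 650 CPM per kb.

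Whether the lines differ before any treatment was tested on the 5 S2 and 4 Kc control libraries. Of the 9 genes, 5 passed an adjusted p of 0.05 (edgeR quasi-likelihood test, Benjamini-Hochberg over 8375 genes), all 5 lower in S2 cells. They were 14-3-3zeta, borr, Haspin, aurA and Incenp. Of all genes tested 68.0% passed, 35.1% as lower in S2 cells. A count of 5 of 9 is thus below the share that passed in either direction and above the share that was lower, which was not tested. No gene of the 9 was higher in S2 cells by this test. Line, sex and history of the cultures cannot be told apart in this comparison.

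The largest of these line differences was in 14-3-3zeta. Its level was 939, 938, 1051, 1067 and 985 CPM in S2 control replicates 4, 5, 8, 9 and 11, and 2428, 2515, 2307 and 2204 CPM in Kc control replicates 1 to 4. Every Kc library was above every S2 library, and the fitted log2 difference was -1.29 (SE 0.074, adjusted p = 1.9e-08 by edgeR). Among all genes, 9.86% were lower still in S2 cells by log2 fold change.

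For the other 14-3-3 gene, 14-3-3epsilon, no line difference was called. It was at 1080, 1098, 1236, 1250 and 1003 CPM in the S2 controls and at 1334, 1020, 1199 and 1087 CPM in the Kc controls. The ranges overlapped and the log2 difference was -0.08 (adjusted p = 0.48). The ratio of 14-3-3zeta to 14-3-3epsilon per kb was between 0.787 and 0.909 in the S2 controls and between 1.68 and 2.28 in the Kc controls, a log2 difference of -1.22 (two-sided exact permutation test, p = 0.0159, the smallest this design allows, adjusted p = 0.0265 over 5 ratio tests). The same libraries had already separated by 14-3-3zeta alone, so this p-value is no separate support. Per kb of merged exons the higher gene was therefore 14-3-3epsilon in S2 and 14-3-3zeta in Kc cells, in 5 of 5 and 4 of 4 control libraries. The merged exons number 12 for 14-3-3zeta and 4 for 14-3-3epsilon. The length of the transcripts present was not measured, so the order in S2 cells depends on this measure of length.

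Among the Aurora genes and their partners the line differences were smaller. For borr the S2 controls were at 50.8, 62.0, 59.8, 66.1 and 51.7 CPM and the Kc controls at 94.6, 77.8, 73.1 and 71.8 CPM. These ranges did not overlap and the log2 difference was -0.51 (SE 0.10, adjusted p = 0.00085). For aurA the S2 controls were at 45.3, 35.6, 50.9, 46.4 and 39.9 CPM and the Kc controls at 56.6, 58.0, 58.4 and 52.2 CPM. These did not overlap either, at a log2 difference of -0.41 (SE 0.095, adjusted p = 0.0022). For Incenp the means were 213 ± 19.1 CPM (SD, n = 5) in S2 and 242 ± 20.9 CPM (SD, n = 4) in Kc controls with overlapping ranges, a log2 difference of -0.24 (SE 0.089, adjusted p = 0.033). This last call was lost when S2 control replicate 4, 5 or 11 or Kc control replicate 3 or 4 was left out, with values between -0.28 and -0.19 over all 9 omissions and an adjusted p of up to 0.096.

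For the enzyme of the complex no line difference was called. The aurB level was 73.8 ± 6.70 CPM (SD, n = 5) in S2 and 74.3 ± 2.19 CPM (SD, n = 4) in Kc controls, at a log2 difference of -0.06 (95% interval -0.21 to 0.09, adjusted p = 0.50). Det, at 36.5 ± 5.70 and 41.0 ± 2.19 CPM, had a log2 difference of -0.23 that missed the threshold (adjusted p = 0.081). The ball level was 125 ± 11.8 CPM in S2 and 119 ± 8.86 CPM in Kc controls (log2 difference 0.02, 95% interval -0.15 to 0.19, adjusted p = 0.87). Ranges of S2 and Kc controls did not overlap for 4 of the 9 genes (aurA, borr, Haspin and 14-3-3zeta), and for 57.6% of all genes tested.

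The next comparisons ask what RNAi against jasper or jil-1 did to these genes. The paper reports that JIL-1 protein was lost to the same level with either RNAi in both lines, so jasper RNAi removed JIL-1 as well. Both RNAi groups of a line were compared with the same control libraries, so the responses to jasper and jil-1 RNAi share their controls and are given side by side. Libraries of the same replicate number share a batch and matched no further than that, so values of same-numbered pairs are descriptions. Haspin, the kinase for threonine 3 of histone H3, was called in 3 of these 4 comparisons, both in S2 cells and Kc jasper RNAi. It spans 35232 bases on chromosome 2R (build BDGP6, 2R:4014111-4049342, plus strand), of which 5.15% are exonic in 5 merged exons. No other annotated gene on its strand shares its exons, and it held at least 135 reads in every library.

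In S2 cells the Haspin level was 47.6, 56.4, 62.0, 59.8 and 54.6 CPM in control replicates 4, 5, 8, 9 and 11. It was 32.4, 38.7, 39.2 and 39.3 CPM in jasper RNAi replicates 4, 5, 8 and 9. All 4 jasper RNAi libraries were below every control library, with replicate 4 the lowest of its group. The log2 fold change was -0.56 (SE 0.12, 95% interval -0.81 to -0.32, adjusted p = 0.0050 by edgeR). Haspin was lower in 4 of 4 same-numbered pairs, by -0.66 to -0.54 on the log2 scale, and within batches it differed by -0.55 and -0.63.

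In S2 jil-1 RNAi replicates 4, 5, 8, 9 and 11 Haspin was at 47.4, 35.5, 28.8, 33.5 and 39.2 CPM. These libraries spread more widely than the jasper RNAi ones. Replicate 4 was barely below the lowest control (47.4 against 47.6 CPM) and the other 4 were well below it, so that the ranges did not overlap. Haspin fell by 0.62 on the log2 scale (SE 0.12, 95% interval -0.84 to -0.39, adjusted p = 0.0013). The same-numbered pairs lay between -1.10 and -0.0037, and the batches at -0.33, -0.97 and -0.47. Of all genes 5.59% fell further in fold change with jasper RNAi and 4.60% with jil-1 RNAi. Both calls held when any 1 of the 14 S2 libraries was left out, at values between -0.65 and -0.48 for jasper RNAi and between -0.76 and -0.51 for jil-1 RNAi.

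**Figure D2:**
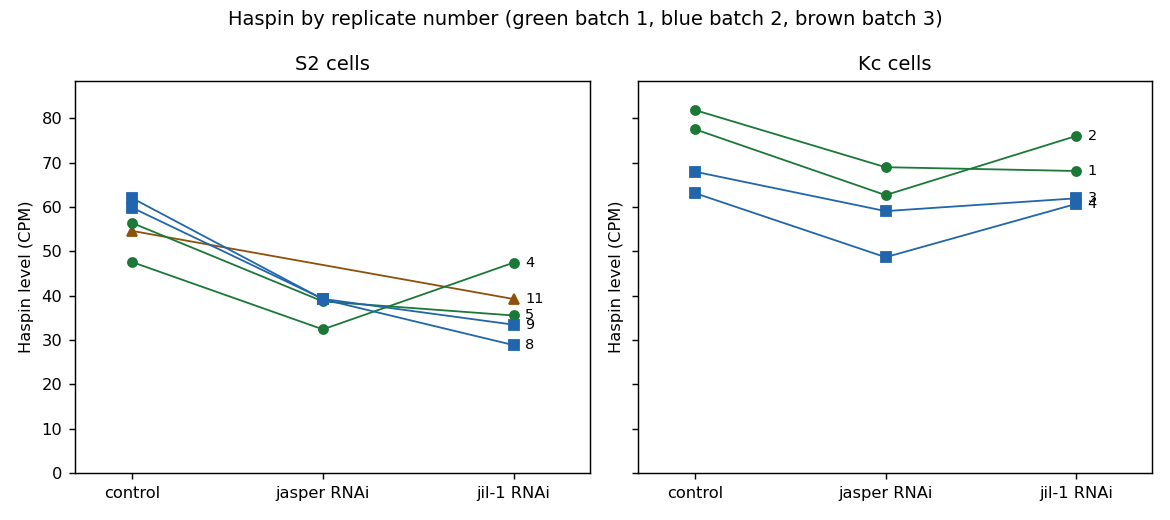
Haspin level in CPM in each library of S2 (left) and Kc cells (right), with lines joining control, jasper and jil-1 RNAi libraries of the same replicate number, and with batches 1, 2 and 3 in green, blue and brown. Every RNAi point sits below the control of its number, in S2 replicate 4 with jil-1 RNAi only barely (47.4 against 47.6 CPM).

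In Kc cells Haspin was at 81.9, 77.5, 68.0 and 63.1 CPM in control replicates 1 to 4 and at 69.0, 62.7, 59.1 and 48.7 CPM in jasper RNAi replicates 1 to 4. The group ranges overlapped, but each jasper RNAi library was below the control of its number, by -0.37 to -0.20 on the log2 scale. Haspin fell by 0.27 (SE 0.068, 95% interval -0.41 to -0.14, adjusted p = 0.043). This call was fragile. It was lost in 10 of 12 omissions of a single library (all but jasper RNAi replicate 3 and jil-1 RNAi replicate 3), with values between -0.31 and -0.22 and adjusted p of up to 0.12. Without the jasper RNAi libraries that stood apart, replicates 2 and 4, it was -0.19 (adjusted p = 0.22).

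In Kc jil-1 RNAi replicates 1 to 4 Haspin was at 68.1, 76.0, 62.0 and 60.7 CPM, within or just below the control range of 63.1 to 81.9 CPM. All 4 were below the control of their number, by -0.26 to -0.028. The log2 fold change of -0.08 was not called (95% interval -0.22 to 0.05, adjusted p = 0.54). Between the knockdowns themselves, Haspin differed by 0.06 in S2 cells (95% interval -0.19 to 0.30, adjusted p = 0.86) and by -0.19 in Kc cells (adjusted p = 0.22), for jasper minus jil-1 RNAi.

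The difference of the responses between lines was tested as an interaction over all 26 libraries. Haspin was the 1 gene of the 9 that passed, for jil-1 RNAi, at -0.53 for S2 minus Kc (SE 0.15, 95% interval -0.82 to -0.24, adjusted p = 0.032). Of 7909 genes tested 7.93% passed, 3.58% with a more negative response in S2 cells. The call was lost in 8 of 26 omissions of a single library, with values between -0.69 and -0.43 and adjusted p of up to 0.066, namely without S2 control replicate 8 or 9, S2 jil-1 RNAi replicate 8 or 9, Kc control replicate 2 or 4, or Kc jil-1 RNAi replicate 2 or 3. For jasper RNAi the Haspin difference was -0.30 (95% interval -0.60 to -0.0072, adjusted p = 0.29), which missed the threshold. None of the 9 passed that interaction by edgeR, against 4.32% of all genes, while 2 of 9 were below an unadjusted p of 0.05 and DESeq2 called 1, ball. By edgeR the ball response to jasper RNAi was 0.25 higher in S2 than in Kc cells with an adjusted p of 0.066.

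Haspin was also 1 of the genes that differed between the lines without treatment. Its S2 controls, at 47.6 to 62.0 CPM, were all below its Kc controls, at 63.1 to 81.9 CPM, at a log2 difference of -0.42 (SE 0.095, adjusted p = 0.0017).

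Set against the Aurora B gene, the ratio of Haspin to aurB per kb was between 0.461 and 0.525 in S2 controls, between 0.282 and 0.355 after jasper RNAi and between 0.220 and 0.450 after jil-1 RNAi. Neither RNAi group overlapped with the controls. The log2 differences were -0.66 (two-sided exact permutation test, p = 0.0159) and -0.67 (p = 0.00794), each the smallest p its design allows and each 0.0265 after adjustment over 5 ratio tests. The same libraries gave the Haspin levels above, which did not overlap with controls, so these p-values are no separate support. In Kc cells the ratio was 0.573 to 0.728 in controls, 0.497 to 0.720 after jasper RNAi (log2 difference -0.15, exact p = 0.257, adjusted 0.321) and 0.578 to 0.743 after jil-1 RNAi (0.01, exact p = 0.80). Without jasper RNAi replicates 2 and 4 the Kc jasper ratios were 0.521 and 0.568, both below every control, at a log2 difference of -0.22.

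**Figure D3:**
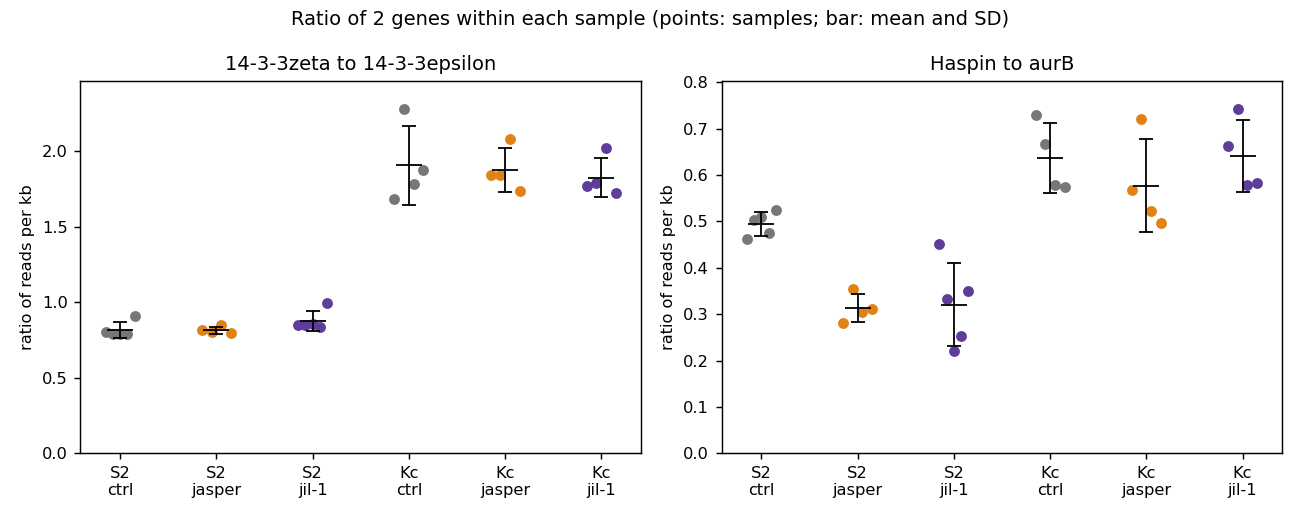
Ratio of 14-3-3zeta to 14-3-3epsilon (left) and of Haspin to aurB (right), both per kilobase of merged exons, in each library of the 6 groups, with points for libraries and bars for the mean and SD. The first ratio separates the lines, with controls at 0.787 to 0.909 in S2 and 1.68 to 2.28 in Kc cells, and the second separates control from RNAi libraries in S2 cells, at 0.461 to 0.525 against at most 0.450.

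The second kinase with a called response was ball. In S2 cells it was at 117, 120, 134, 141 and 113 CPM in control replicates 4, 5, 8, 9 and 11 and at 139, 132, 155 and 148 CPM in jasper RNAi replicates 4, 5, 8 and 9. The jasper RNAi libraries were the higher ones in each of the 4 pairs, by 0.072 to 0.24 on the log2 scale, but the group ranges overlapped. Expression of ball rose by 0.18 on the log2 scale (SE 0.043, 95% interval 0.09 to 0.26, adjusted p = 0.0088). The batches gave 0.19 and 0.14, and the call held in all 14 omissions of a single library, at 0.16 to 0.19. It was lost when the batch was left out of the model (0.20, adjusted p = 0.13). Of all genes 18.2% rose further. After jil-1 RNAi ball was at 124, 116, 148, 143 and 124 CPM and its change of 0.06 was not called (adjusted p = 0.27), and the difference between both knockdowns was not called either (0.11, adjusted p = 0.14).

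In all, 2 of the 9 genes passed the threshold with jasper RNAi in S2 cells, Haspin lower and ball higher, where 20.3% of 8465 genes passed (8.45% higher and 11.9% lower). With jil-1 RNAi 2 of the 9 passed, Haspin and 14-3-3epsilon, both lower, where 21.4% passed (12.3% lower). Both counts are near the background share. The sample ranges of RNAi and control did not overlap for 1 of the 9 genes in each comparison, Haspin, against 12.9% of all genes for jasper RNAi and 7.06% for jil-1 RNAi. In the direct test of jasper against jil-1 RNAi in S2 cells 0 of 9 passed by edgeR and by DESeq2, 1 was below an unadjusted p of 0.05 (ball), and 6.38% of all genes passed.

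The 14-3-3 genes changed little. In S2 cells 14-3-3epsilon was at 1011, 965, 1055, 1112 and 1037 CPM in jil-1 RNAi replicates 4, 5, 8, 9 and 11, against 1080, 1098, 1236, 1250 and 1003 CPM in the controls of the same numbers. It was lower in 4 of 5 pairs and higher in replicate 11, and the ranges overlapped. It fell by 0.13 on the log2 scale (SE 0.045, 95% interval -0.22 to -0.045, adjusted p = 0.044), with batches at -0.14, -0.20 and 0.047. This call was lost in 12 of 14 omissions of a single library (kept only without control or jil-1 RNAi replicate 11), with values between -0.18 and -0.10 and adjusted p of up to 0.12. With the replicate number as a block in place of the batch it was -0.13 with an adjusted p of 0.055.

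After jasper RNAi 14-3-3epsilon was at 1030, 1022, 1183 and 1169 CPM in S2 replicates 4, 5, 8 and 9, below its control in 4 of 4 pairs. The change of -0.06 was not called (adjusted p = 0.40). For 14-3-3zeta, S2 group means were 996 ± 61.0 CPM (SD, n = 5) in controls, 971 ± 90.5 CPM (SD, n = 4) after jasper RNAi and 981 ± 86.5 CPM (SD, n = 5) after jil-1 RNAi, and neither change was called.

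The chromosomal passenger genes and aurA gave no call with either RNAi in S2 cells. For aurB the group means were 73.8 ± 6.70 CPM (SD, n = 5) in controls, 77.8 ± 5.93 CPM (SD, n = 4) after jasper RNAi and 76.7 ± 8.62 CPM (SD, n = 5) after jil-1 RNAi. For Incenp they were 213 ± 19.1, 219 ± 9.82 and 219 ± 26.6 CPM, for borr 58.1 ± 6.63, 55.5 ± 4.03 and 56.9 ± 10.2 CPM, for Det 36.5 ± 5.70, 36.5 ± 4.78 and 34.6 ± 4.49 CPM, and for aurA 43.6 ± 5.94, 47.7 ± 4.51 and 44.4 ± 4.92 CPM. Differences between group means were thus within 1 SD in each of these genes. The log2 fold changes of the genes not called lay between -0.08 for borr and 0.08 for aurA with jasper RNAi, and between -0.06 for Det and 0.06 for ball with jil-1 RNAi. Over all genes the median log2 fold change was 0.01 and 0.00 in these comparisons.

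**Figure D4:**
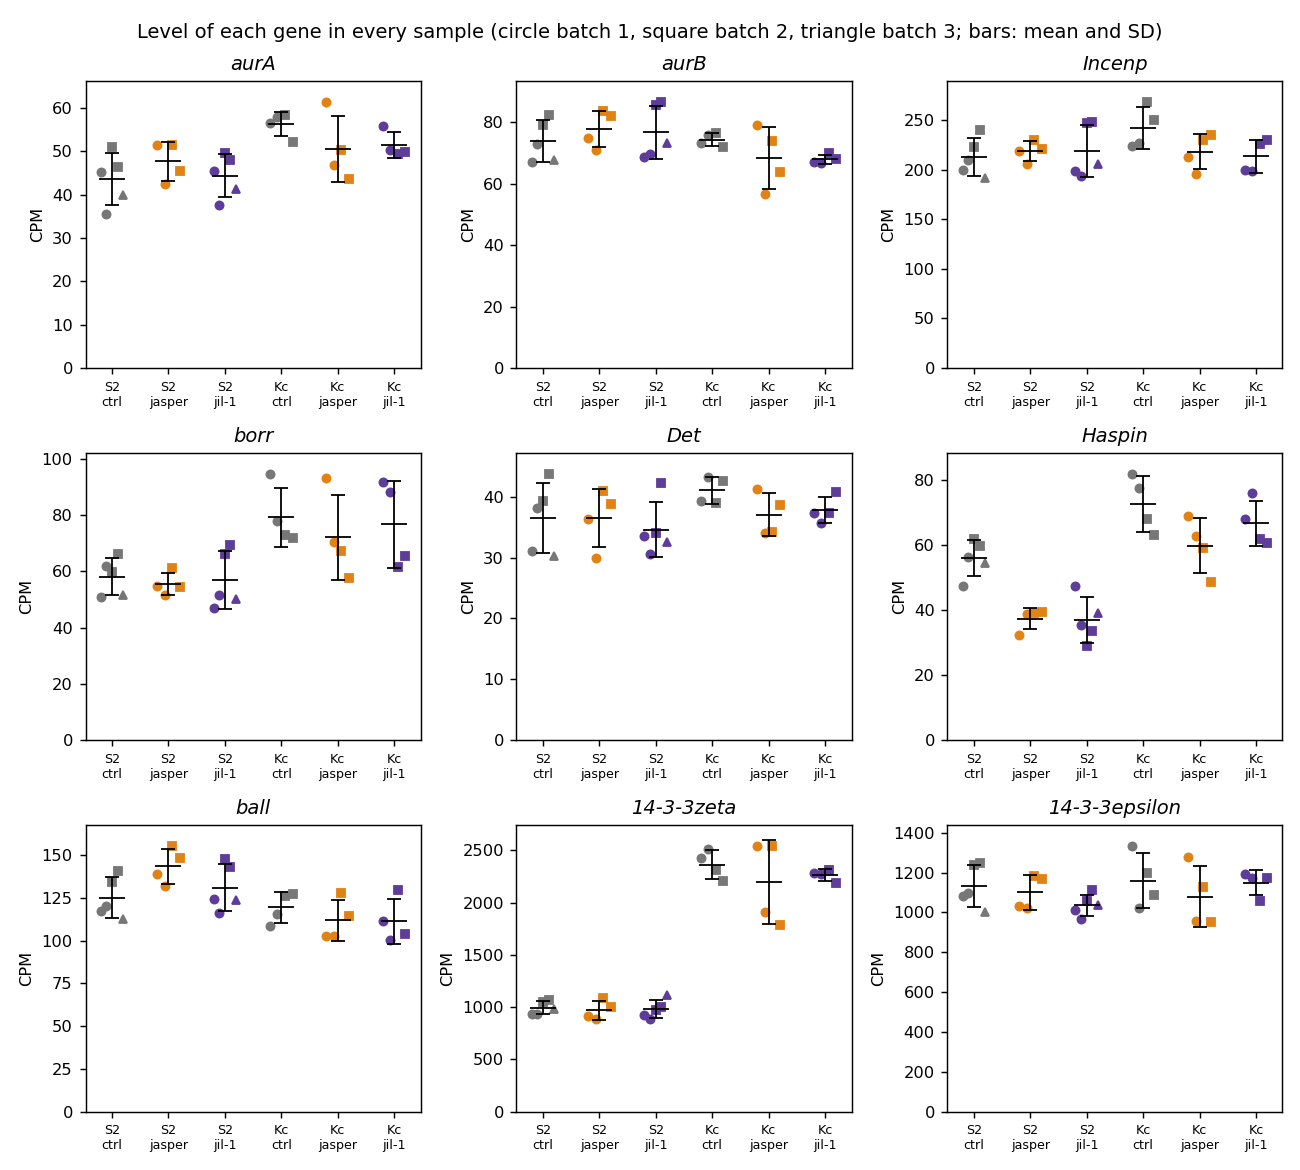
Level in CPM of each of the 9 genes in all 26 libraries, by line and RNAi group, with points for libraries and bars for the mean and SD. The RNAi groups separate from control for Haspin in S2 cells (37.4 and 36.9 against 56.1 CPM in the means), and the lines separate for 14-3-3zeta.

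In Kc cells 1 of the 9 genes passed with jasper RNAi, Haspin, where 4.56% of 8847 genes passed (2.79% lower). With jil-1 RNAi 0 of 9 passed by edgeR and by DESeq2, 1 was below an unadjusted p of 0.05 (Incenp), and 3.53% of all genes passed. Between the knockdowns 0 of 9 passed by both tools, 1 was below an unadjusted p of 0.05 (Haspin), and 0.588% of all genes passed. Ranges did not overlap for 0 of 9 genes with jasper RNAi, against 7.98% of all genes, and for 1 of 9 with jil-1 RNAi, against 9.56%. That gene was aurB, at 73.3, 75.8, 76.5 and 71.8 CPM in control replicates 1 to 4 and 67.1, 66.7, 69.9 and 67.9 CPM after jil-1 RNAi. All 4 aurB pairs were lower with jil-1 RNAi, but the log2 fold change of -0.10 was not called (adjusted p = 0.57).

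All 9 genes had a negative log2 fold change with jasper RNAi in Kc cells, with a median of -0.14 beside 0.00 over all genes, although only Haspin was called. For aurB, jasper RNAi replicates 1 to 4 were at 79.2, 56.7, 73.8 and 63.8 CPM against control means of 74.3 ± 2.19 CPM (SD, n = 4), and for 14-3-3zeta they were at 2541, 1913, 2536 and 1789 CPM. In both genes replicates 2 and 4 were below every control and the other replicates were not. For aurA the same replicates were at 61.3, 46.9, 50.2 and 43.7 CPM and for borr at 93.3, 70.5, 67.2 and 57.7 CPM, and in both of these genes replicates 2, 3 and 4 were below every control.

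The summed level of 24 genes of mitotic entry and exit moved the same way, at 3305, 2629, 3190 and 2772 CPM in jasper RNAi replicates 1 to 4 against 3076 to 3350 CPM in the Kc controls, and its part in these values was not tested. Without replicates 2 and 4, 6 of the 9 genes were negative and 3 positive, at a median of -0.03, and 14-3-3epsilon turned to 0.04. With jil-1 RNAi 8 of 9 Kc fold changes were negative, at a median of -0.08. The largest of these was Incenp, at 224, 226, 268 and 250 CPM in control and 200, 199, 225 and 230 CPM in jil-1 RNAi replicates 1 to 4, a change of -0.15 that missed the threshold (adjusted p = 0.16).

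**Figure D5:**
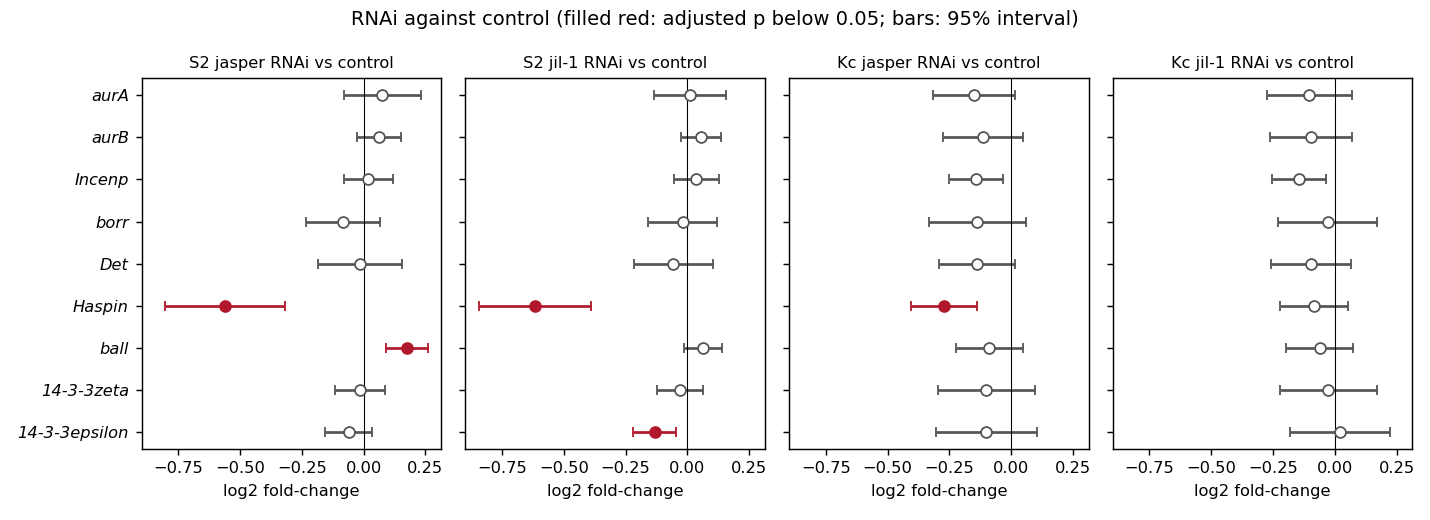
Log2 fold change of each of the 9 genes with its 95% interval, for jasper and jil-1 RNAi in S2 and Kc cells, with changes that passed an adjusted p of 0.05 in red. Haspin lies furthest below 0 in S2 cells (-0.56 and -0.62), and in Kc jasper RNAi all 9 genes lie below 0.

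The 9 genes varied together to different degrees. Over the 26 libraries, with log2 CPM centered on the mean of each line, the closest pairs were Incenp and ball (Pearson r = 0.783), aurB and Incenp (0.743), aurB and Det (0.694), aurB and 14-3-3zeta (0.686), borr and 14-3-3epsilon (0.675) and aurA and aurB (0.674). Haspin stood off from the others, with r between -0.350 (ball) and 0.455 (14-3-3epsilon). These points share batches, depth and RNAi groups, so the values are descriptions.

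The 3 genes most like each of the 9 were taken by the same measure among 7348 genes. Closest to Haspin were p120ctn (r = 0.835), a catenin, CG3107 (0.825) and CG31875 (0.807). For aurA they were Hat1 (0.810), a histone acetyltransferase, Cap-D2 (0.795), a condensin subunit, and Klp67A (0.791), a mitotic kinesin. For aurB they were Prosbeta3 (0.866), a proteasome subunit, mtSSB (0.855), which binds mitochondrial DNA, and Fen1 (0.854), a nuclease of DNA replication. Incenp had Ote (0.936), an inner nuclear membrane protein, ATPsynE (0.912), a subunit of the mitochondrial ATP synthase, and Prosalpha3 (0.895), a proteasome subunit. ATPsynE was also among those of ball (0.822), beside Slbp (0.881), which binds the stem-loop of histone mRNA, and Pfas (0.818), an enzyme of purine synthesis. For borr they were the proteasome subunit Rpn6 (0.871), BCL7-like (0.855) and the lamin Lam (0.832), and for Det the proteasome subunit Prosbeta4 (0.790), Ak6 (0.771) and ATPsynG (0.763). For 14-3-3zeta they were Arpc3A (0.863), Sur-8 (0.861) and alph (0.859), and for 14-3-3epsilon AIF (0.811), Rad23 (0.806) and Acf (0.798).

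The wider pathways were read from 7 lists with 69 genes in all, of which 67 were tested in S2 and 68 in Kc cells. With jasper RNAi in S2 cells 6 of 67 passed (4 higher, 2 lower, 8.96% beside 20.3% of all genes), with a median of 0.02 beside 0.01 over all genes. Among 8 tested partners of Aurora kinases, mei-38, a spindle protein, fell by 0.49 (SE 0.10, adjusted p = 0.0036), the microtubule-depolymerizing kinesin Klp10A fell by 0.20 (adjusted p = 0.0028) and the cytokinesis kinesin pav rose by 0.14 (adjusted p = 0.039). Among 24 genes of mitotic entry and exit 3 rose, namely stg, the Cdc25 phosphatase that starts mitosis and a 14-3-3 client, by 0.56 (SE 0.077, adjusted p = 9.3e-05), Cap-D2 by 0.16 (adjusted p = 0.035) and fzy, an activator of the anaphase-promoting complex, by 0.14 (adjusted p = 0.026). The calls of mei-38, Klp10A and stg held in all 14 omissions of a single S2 library, whereas those of pav, Cap-D2 and fzy were lost in 6, 7 and 5 of them. No cohesin gene, of 9, and no nuclear envelope gene, of 5, passed by edgeR.

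With jil-1 RNAi in S2 cells 8 of 67 passed (1 higher, 7 lower, 11.9% beside 21.4% of all genes), at a median of -0.02 beside 0.00. Again mei-38 and Klp10A fell, by 0.41 (adjusted p = 0.0074) and by 0.25 (adjusted p = 0.00022). The paper reports that X-chromosomal genes as a whole fell in S2 cells with either RNAi. The listed genes were not sorted by chromosome here, so a fall shared with the X chromosome was not tested. Of the cohesin genes, SMC3, a subunit of the ring, fell by 0.21 (adjusted p = 0.0066) and the loader Nipped-B fell by 0.26 (adjusted p = 0.018). The mitotic kinase polo fell by 0.15 (adjusted p = 0.018), the cyclin CycA fell by 0.12 (adjusted p = 0.044) and the checkpoint kinase Bub1 rose by 0.16 (adjusted p = 0.048). Pka-C1, the catalytic subunit of protein kinase A, fell by 0.22 (adjusted p = 0.040). In the 14 omissions of a single library mei-38, Klp10A and SMC3 kept their calls, and the calls were lost in 2 for polo, 3 for Nipped-B, 9 for Pka-C1, 10 for Bub1 and 11 for CycA. DESeq2 did not call Bub1 (adjusted p = 0.073). The 10 tested phosphatase genes that can oppose serine 10 phosphorylation gave 0 calls by edgeR and by DESeq2 with either RNAi in either line, and 3, 1, 1 and 2 of them were below an unadjusted p of 0.05 (S2 jasper, S2 jil-1, Kc jasper and Kc jil-1 RNAi).

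The knockdowns differed from each other in S2 cells for 3 of the 67 listed genes (4.48% beside 6.38% of all genes). These were stg (0.51 higher with jasper RNAi, adjusted p = 0.00070), pav (0.18 higher, adjusted p = 0.026) and the kinase IKKbeta (-0.14, adjusted p = 0.045). The stg call held in all 14 omissions, the pav call was lost in 5 and the IKKbeta call in 11, and DESeq2 did not call IKKbeta (adjusted p = 0.092). In Kc cells 1 of 68 listed genes passed with jasper RNAi (1.47% beside 4.56% of all genes). It was the mitotic kinase gwl, which fell by 0.31 (SE 0.076, adjusted p = 0.037). This call was lost in 9 of 12 omissions of a single library (kept without jasper RNAi replicate 1 or 3 or jil-1 RNAi replicate 3), at values between -0.37 and -0.26 and adjusted p of up to 0.12, and without both libraries that stood apart it was -0.21 (adjusted p = 0.22). DESeq2 called 4 of the listed genes there, gwl, polo and LBR lower and Pkn higher. With jil-1 RNAi 0 passed by edgeR (beside 3.53% of all genes) and 0 by DESeq2, with 6 below an unadjusted p of 0.05. The responses to jasper RNAi differed between lines for 2 of 67 listed genes (2.99% beside 4.32% of all genes). These were stg (0.57 higher in S2 cells, adjusted p = 0.0087) and gwl (0.43 higher, adjusted p = 0.0029). The response to jil-1 RNAi differed for 1 of 67 (1.49% beside 7.93%), the cohesin subunit vtd (-0.41, adjusted p = 0.028). Both jasper interactions held in all 26 omissions and without both Kc libraries that stood apart (0.70 with adjusted p = 0.0023 for stg, 0.34 with adjusted p = 0.017 for gwl), and that of vtd was lost in 4 of 26. Without the batch term in the model, the calls of listed genes named here for RNAi were lost except those of mei-38, Klp10A and stg against control in S2 cells.

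Between control S2 and Kc cells 46 of the 67 listed genes passed (68.7%, 21 higher and 25 lower in S2 cells), close to the share among all genes. Of the Aurora partners, bora, an activator of Aurora A, was lower in S2 cells by a log2 difference of -1.09 (adjusted p = 3.0e-06), and the LIM protein jub was higher by 0.90 (adjusted p = 1.0e-05). The centromeric histone cid was lower by -1.47 (adjusted p = 1.8e-07) and CycA by -1.22 (adjusted p = 2.6e-08). Of the ball and nuclear envelope list, baf, the substrate of ball, was higher by 0.74 (adjusted p = 3.8e-06), whereas no line difference was called for ball itself. Of the 14-3-3 clients, foxo was lower by -1.16 (adjusted p = 3.8e-06), stg higher by 0.89 (adjusted p = 0.00078) and yki higher by 0.42 (adjusted p = 0.0062).

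The 9 genes lie on 3 chromosome arms of build BDGP6. On 3R are aurA (FBgn0000147, 3R:11963124-11964826), Det (FBgn0264291, 3R:17149667-17150455), 14-3-3epsilon (FBgn0020238, 3R:18242531-18250550) and ball (FBgn0027889, 3R:26864605-26866807, minus strand). On 2L are borr (FBgn0032105, 2L:9251472-9253118, minus strand) and aurB (FBgn0024227, 2L:10856797-10858094, minus strand). On 2R are Haspin (FBgn0046706), Incenp (FBgn0260991, 2R:7278467-7281795) and 14-3-3zeta (FBgn0004907, 2R:10099677-10109687). None lies on the X chromosome. The exons of aurA share 153 bases (9.70%) with those of CG12213 on the opposite strand, and reads opposite to aurA reached 18.1% of its own in 1 library, so that some of its reads cannot be assigned with certainty. Opposite-strand reads were at most 7.24% for Incenp and 5.17% for the other 7.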

How the data were processed

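The authors isolated RNA from cells treated with dsRNA in 2 rounds, depleted rRNA with 1 of 2 kits (which sample had which kit is not given in the sources used here), made strand-specific libraries and aligned 50 bp paired-end reads to build BDGP6 with STAR 2.6.0, keeping unique alignments. The deposited values are raw read counts per gene, and the counts on the gene's own strand were used. The submitters' notes also name RSEM 1.3.0, whose output was not used here.

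Genes with counts above 0 in every sample of a fit were tested with edgeR 4.0.16 in R 4.3.3 (TMM, quasi-likelihood F-test), per line with batch as a term, over both lines with batch within line for interactions, and without a batch for the controls of both lines. Adjusted p are Benjamini-Hochberg values over all genes tested, with a threshold of 0.05. SE is the log2 fold change over the square root of F, and 95% intervals are 1.96 SE on either side. As 1.96 is a normal quantile, these intervals are narrower than the F-test allows, and calls rest on adjusted p only. Ratios were tested by exact permutation of samples, without regard to batch, and were not among the planned comparisons. Levels per kb use merged exons of the Ensembl annotation of BDGP6. DESeq2 1.42.0, other scalings and filters, unstranded counts, no batch, the replicate number as a block, and leaving out each library were run as alternatives. Code was tested on simulated data.

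Same-numbered samples deviated together in every pair (r from 0.135 to 0.641 in S2, 0.222 to 0.491 in Kc cells). Within batches this fell to between -0.116 and 0.141 in S2 and between -0.145 and 0.178 in Kc cells. The numbers thus matched samples no further than their shared batch, and values of same-numbered pairs are descriptions.

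The 9 genes, the lists and the markers were chosen with earlier results of these data known. Named were all 9 genes, the targeted genes, up to 3 called genes per list and comparison with mean log2 CPM of at least 1, and the 3 most alike genes of each. Values of the 9 that missed the threshold were picked after they were seen. The symbols Top2, Tlk and vas were not matched and are not analysed here. No nucleotide or protein sequence was used here.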

Additional observations from a re-analysis of the deposited data

Results flagged for a closer look

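Of 54 groups of 4 or 5 samples (9 genes in 6 groups), 3 held a sample far from the others by Dixon's criterion, and chance gives about 1 in 20. Haspin in S2 jasper RNAi replicate 4 was low, at 32.4 CPM where the next sample had 38.7 CPM (gap of 0.917 of the range). In Kc jil-1 RNAi, aurA was high in replicate 1 (55.8 CPM, next 50.3 CPM, gap 0.855), and 14-3-3epsilon was low in replicate 3 (1058 CPM, next 1174 CPM, gap 0.864). Between lines, the Haspin response to jil-1 RNAi differed by -0.53 on the log2 scale for S2 minus Kc (adjusted p = 0.032 by edgeR).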

How the results depend on the processing

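Calls of Haspin and ball in S2 cells held under the alternatives run, except for ball without the batch term (1 of the 9 genes then passed with jasper RNAi). The call of 14-3-3epsilon with jil-1 RNAi was lost (1 of the 9 left) without a filter on low counts, with unstranded counts, without the batch, with only control and jil-1 RNAi libraries, and with the replicate block (adjusted p from 0.055 to 0.26). The replicate block changed no other call of the 9. The Haspin call in Kc jasper RNAi was lost (0 of the 9 left) without the filter, with unstranded counts, without the batch, with only control and jasper RNAi libraries, and without both libraries that stood apart, an alternative chosen after seeing the data (-0.28 to -0.19, adjusted p from 0.051 to 0.26); 14-3-3epsilon then turned to 0.037 without both libraries. The interaction of Haspin with jil-1 RNAi was lost without the batch (-0.52, adjusted p = 0.14, 0 of 9 left), and DESeq2 added 1 of 9 (ball) to the interaction with jasper RNAi. The causes were not tested.

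Over all genes, calls without the batch numbered 645 and 551 in S2 cells (jasper and jil-1 RNAi, 1719 and 1810 with it), 134 between the knockdowns (540 with it), 58, 57 and 6 in the same comparisons of Kc cells (403, 312 and 52 with it), and 91 and 78 for the interactions (342 and 627 with it). Without the filter they numbered 932 between knockdowns in S2 cells, 739, 589 and 408 in Kc cells, and 606 for the jasper interaction, and the median of all genes moved to -0.13 between the lines. DESeq2 made 709, 634 and 316 calls in Kc cells. Only control and jasper RNAi libraries gave 159 in Kc cells, leaving out both libraries that stood apart gave 178 and 497, and the replicate block gave 83 between knockdowns. With RLE scaling the jil-1 interaction split into 250 higher and 308 lower in S2 cells, against 344 and 283 with TMM.

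Leaving out single libraries gave 1144 to 1858 and 1216 to 1836 calls over all genes in S2 cells (jasper and jil-1 RNAi), 308 to 529 between the knockdowns, 138 to 466, 133 to 336 and 11 to 82 in Kc cells, 212 to 428 and 348 to 699 for the interactions. The lowest came without S2 control replicate 8, S2 jil-1 RNAi replicate 9, Kc jasper RNAi replicate 2, Kc control replicate 3 and Kc jil-1 RNAi replicate 2. Of the 9 genes, 1 to 2 passed with jil-1 RNAi in S2 cells, 0 to 1 with jasper RNAi in Kc cells, 4 to 6 between lines and 0 to 1 in each interaction (ball passed with jasper RNAi without Kc jasper RNAi replicate 3, adjusted p = 0.040, or Kc jil-1 RNAi replicate 4, adjusted p = 0.038). Uncalled values that turned were 14-3-3epsilon with jil-1 RNAi in Kc cells (-0.062 to 0.088) and Haspin between the knockdowns in S2 cells (-0.066 to 0.22). The lowest count of any of the 9 in a library was 113 reads (Det).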

Other observations

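Haspin lies toward the centromere-proximal end of chromosome arm 2R, and p120ctn (2R:4595288-4609492), the gene most like it over the 26 libraries, lies within 1 Mb of it. The other genes within 1 Mb on either side were therefore counted, in a window chosen after these values were seen and with no test. The window was set because p120ctn, picked for its likeness to Haspin in these libraries, lies in it. The counts are thus descriptions only. With jasper RNAi in S2 cells 6 of 22 tested neighbors passed by edgeR, all 6 lower (27.3%, where 11.9% of all genes were lower), with a median log2 fold change of -0.09 beside 0.01 over all genes. With jil-1 RNAi in S2 cells 8 of 22 passed, all 8 lower (36.4%, against 12.3%), at a median of -0.21 beside 0.00. In Kc cells 4 of 24 passed with jasper RNAi, all lower (16.7%, against 2.79%), at a median of -0.10 (2 of 24, both lower, without Kc jasper RNAi replicates 2 and 4, at 8.33% against 1.34%), and 1 of 24 with jil-1 RNAi, lower (4.17%, against 2.18%), at a median of -0.14. The difference of the jil-1 response between lines was called for 3 of 22, all more negative in S2 cells (13.6%, against 3.58%). Without both libraries it was called for 4 of 22, all more negative (18.2%, against 4.91%). The difference of the jasper response was called for 3 of 22 as well (13.6%, against 4.32% of all genes), at a median of -0.02 over the neighbors. Of these, 2 were more negative (9.09%, against 3.0%) and 1 less negative in S2 cells. Without both libraries it was called for 1 of 22, more negative (4.55%, against 3.3%).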
